A study of Mus musculus with 12 samples.

Results

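The genes described here are those through which the transcription factor ATF4 supplies cells with amino acids and one-carbon units, followed in a mouse lung epithelial line after knockdown of the long noncoding RNA NANCI or LL34. A list of 34 symbols was taken: ATF4 and its partner regulators, enzymes of serine, asparagine, proline and mitochondrial folate metabolism, amino acid transporters, and stress-response genes. A gene counted as measured where the platform annotation gave a probe set that symbol alone, which held for 32 of 34 members among 22180 named genes. Slc6a9, a glycine transporter gene, shared its probe set with a second symbol, and Pycr1, a proline synthesis gene, was not paired with a probe set in the annotation, so neither was analysed here. Slc7a11 and Slc1a5 had 2 probe sets each, and the brighter one over the 12 arrays was used.

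ATF4 is a basic leucine zipper factor whose protein is made chiefly when the initiation factor eIF2 is phosphorylated, by kinases that sense amino acid shortage, unfolded protein in the endoplasmic reticulum, double-stranded RNA or mitochondrial stress. Together with C/EBP-family partners it binds a composite DNA element and raises transcription of amino acid transporters, synthesis enzymes, tRNA synthetases and its own feedback regulators. In lung epithelium, which secretes surfactant proteins and lipids, this pathway is known as part of the response to secretory and oxidative load.

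RNA came from 12 samples of MLE12, a mouse distal lung epithelial line immortalised with the SV40 large T antigen under a surfactant protein C promoter, each measured on 1 array. The groups, 3 arrays each, were cells given shRNA against NANCI, cells given a scrambled shRNA and paired in the titles with NANCI, cells given shRNA against LL34, and cells given a scrambled shRNA and paired with LL34. All 4 groups carried a pLKO.1 lentivirus, were exposed to it with polybrene for 12 hours and were collected after 65 hours of subculture. The growth medium of all groups held 2% serum, insulin, transferrin, selenite, hydrocortisone, beta-estradiol and 2 mM glutamine. Every group is therefore 1 cell line under lentiviral infection, with no statement on how many hairpins were used per target.

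The targeted RNA was checked first. Sfta3-ps, for which Nanci is a listed synonym, read 8.75, 9.19 and 9.01 log2 units on NANCI shRNA arrays, against 12.05, 11.83 and 11.81 on NANCI scrambled arrays. It also read lower on LL34 shRNA arrays, at 11.28, 11.54 and 11.19, against 11.99, 12.09 and 11.95 on LL34 scrambled arrays. The changes were −2.91 and −0.67 (limma adjusted p = 1.72e-07 and 0.00284). The RNA called LL34 was not analysed here, so the label of its shRNA has no such check. Array medians lay between 6.84 and 6.88 in the NANCI set of 6 arrays and between 6.54 and 6.61 in the LL34 set, and the submitters do not say whether the sets were normalized together. Tests were therefore made within a set, and levels across sets are given as description. LL34 scrambled replicate 3 correlated least with its own group (mean r = 0.988, against 0.992 or more for every other array).

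Several members share a sequence element in their promoter windows. The list was drawn up around ATF4, so a share above that of all genes can follow from that choice. RefSeq windows of build GRCm38.p6, running from 250 bases before to 50 bases after the start site, were found for 27 of the 32 measured members. The ATF4 and C/EBP composite element was searched as TGATGNAA on both strands. It was present in 8 of these 27 members, against 4.51% of all 27025 genes with a window. The exact form TGATGCAA, which is contained in that motif, was present in 6 of 27 members, against 1.03% of genes. The stretches upstream of the start site that hold a match are given below, 5′ to 3′ on the strand of the gene, with the match in capitals.
Slc7a11, chr3:50443623-50443709, minus strand: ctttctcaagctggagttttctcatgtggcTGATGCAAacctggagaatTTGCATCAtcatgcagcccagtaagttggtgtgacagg
Nupr1, chr7:126625543-126625610, minus strand: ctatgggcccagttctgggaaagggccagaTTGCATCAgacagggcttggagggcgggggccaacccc
Vldlr, chr19:27216790-27216857, plus strand: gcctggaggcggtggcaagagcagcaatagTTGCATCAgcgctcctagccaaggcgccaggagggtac
Chac1, chr2:119351019-119351086, plus strand: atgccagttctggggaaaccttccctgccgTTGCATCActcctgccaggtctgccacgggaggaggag
Asns, chr6:7693210-7693262, minus strand: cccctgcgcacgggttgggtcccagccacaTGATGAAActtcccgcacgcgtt
Atf3, chr1:191183406-191183473, minus strand: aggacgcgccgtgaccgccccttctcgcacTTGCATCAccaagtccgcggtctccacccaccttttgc

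Slc7a11 held 2 matches, in opposite orientations, that began 66 and 47 bases upstream of the start site. In Slc1a4 the match lay across the start site, and in Trib3 it began at base 15 of the transcript. A match describes letters in the window and is not a measured binding site. Of the 8 genes with a match, Slc7a11, Nupr1, Vldlr, Chac1, Asns, Slc1a4 and Trib3 fell with the NANCI shRNA and rose with the LL34 shRNA, and Atf3 did not. That pattern held for 20 of the 32 members, so most genes that followed it had no match or no window. Whether a match goes with the pattern was not tested.

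With the NANCI shRNA most of the module fell. Of the 32 members, 21 fell and 4 rose past an adjusted p of 0.05 (limma on all 12 arrays, Benjamini-Hochberg over all probe sets), and 7 did not pass. These shares, 65.6% and 12.5%, stand beside 13.6% of all named genes lower and 13.2% higher (26.8% either way). The median change of the members was −0.49 on the log2 scale, against 0.0042 over all named genes. All 3 NANCI shRNA arrays lay below all 3 NANCI scrambled arrays in 25 members, an arrangement found in 20.0% of named genes, and above them in 5, as in 20.5%.

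With the LL34 shRNA most of the module rose. Of the 32 members, 24 rose and 4 fell in the same fit, and 4 did not pass. Among all named genes 9.77% rose and 10.3% fell (LL34 shRNA calls in either direction, 20.0%). The median change of the members was 0.78 log2 units, against −0.019 over all named genes. In 24 members every LL34 shRNA array lay above every LL34 scrambled array, as in 18.1% of named genes, and in 4 members every one lay below, as in 17.2%.

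In all, 20 members fell with the NANCI shRNA and rose with the LL34 shRNA, which is 62.5% of those measured, beside 2.90% of all named genes. Only Ddit4 rose with the first and fell with the second, 3 members (Ddit3, Cth and Sesn2) rose with both, and none fell with both. Over all named genes 2.62% rose with the first and fell with the second, and 5.28% passed in the same direction with both. The change with NANCI shRNA minus the change with LL34 shRNA passed the threshold in 26 members and was lower than 0 in 24 of them. Over all named genes 12.3% passed below 0 and 12.0% above, 24.4% in all. The comparisons have no array in common. Across the 32 genes the NANCI and LL34 changes had a Pearson correlation of −0.66 and a Spearman correlation of −0.63, beside −0.0089 and −0.0012 across all 22180 genes. Genes are not independent replicates, so these values describe the arrays only.

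**Figure D1:**
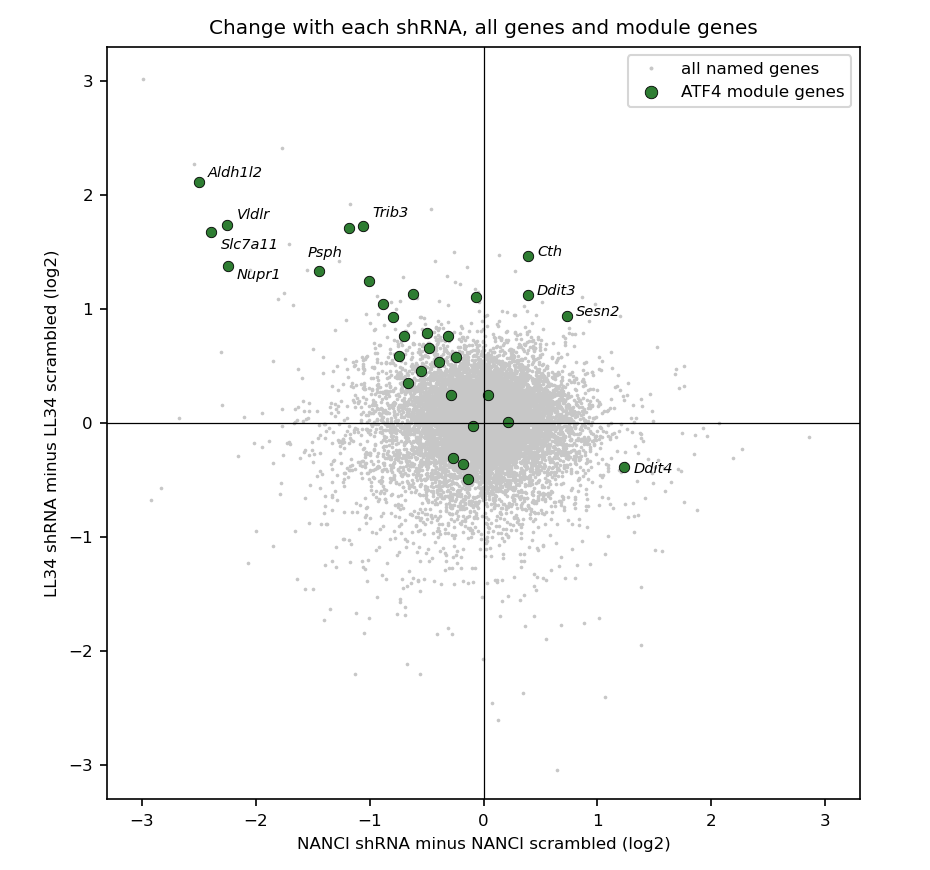
Change in log2 signal with the NANCI shRNA (horizontal axis) and with the LL34 shRNA (vertical axis), each against its own scrambled group of 3 arrays. Grey points are the named genes and green points the 32 module genes, 20 of which passed the threshold as lower with NANCI shRNA and higher with LL34 shRNA (upper left).

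**Figure D2:**
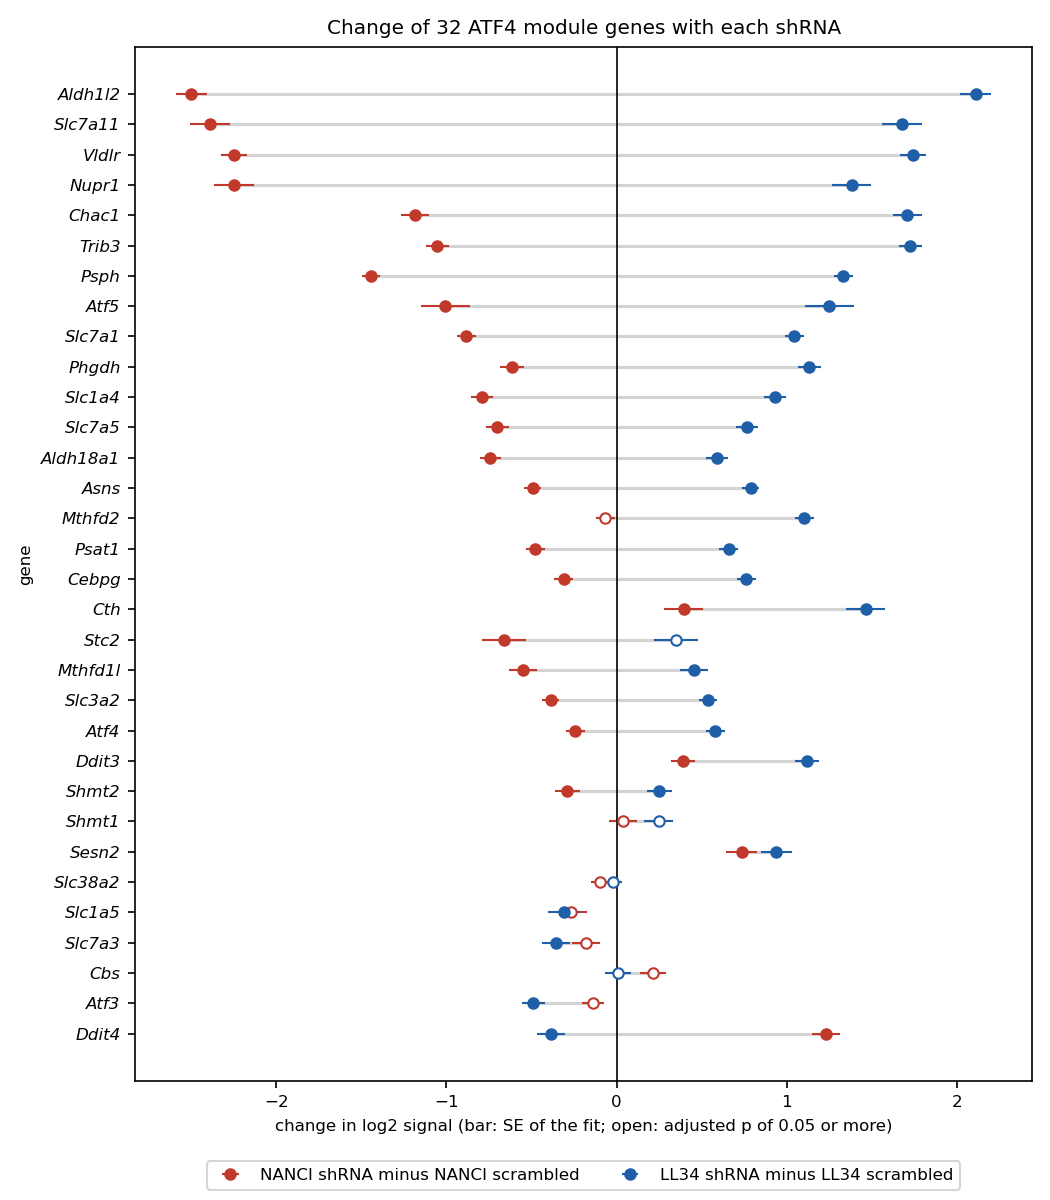
Change of each of the 32 measured members in log2 units, ordered by the NANCI change minus the LL34 change, with the standard error of the fit as bars. Open points did not pass an adjusted p of 0.05, and Aldh1l2, at the top, spans −2.50 to 2.11.

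Among the regulators, Atf4 RNA itself fell with the NANCI shRNA and rose 1.49-fold with the LL34 shRNA. Atf4 (probe set 17313100) read 10.16, 10.11 and 10.02 on NANCI shRNA arrays, against 10.35, 10.32 and 10.35 on NANCI scrambled arrays. It read 10.65, 10.57 and 10.61 on LL34 shRNA arrays, against 10.07, 9.97 and 10.05 on LL34 scrambled arrays. The groups did not overlap in either set, and the changes were −0.24 (SE 0.0560, limma adjusted p = 0.00949) and 0.58 (SE 0.0560, adjusted p = 5.47e-05). Cebpg, a C/EBP factor that dimerises with ATF4, changed by −0.31 with the NANCI shRNA and by 0.76 with the LL34 shRNA (adjusted p = 0.00243 and 1.12e-05).

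Trib3, a pseudokinase that feeds back on ATF4 and CHOP, read 9.23, 9.22 and 9.08 in NANCI shRNA cells, against 10.19, 10.26 and 10.23 in NANCI scrambled cells. In the LL34 set it read 9.75, 9.65 and 9.75 with the shRNA and 8.10, 7.89 and 7.98 with the scrambled construct. The falls and rises were 2.08-fold and 3.31-fold (adjusted p = 1.95e-06 and 3.32e-07). Atf5, a factor under the same translational control as ATF4, read 9.63, 9.65 and 9.43 with NANCI shRNA, against 10.34, 10.74 and 10.65 with its scrambled control. It read 9.20, 9.13 and 9.29 with LL34 shRNA, against 7.73, 7.85 and 8.29 with its scrambled control. Both Atf5 changes passed (−1.01 and 1.25, adjusted p = 0.000404 and 0.000178). Nupr1, a small stress-induced nuclear protein, gave 8.18, 8.51 and 8.14 in NANCI shRNA cells, against 10.63, 10.35 and 10.59 in NANCI scrambled cells, a 4.75-fold fall (adjusted p = 5.78e-07). It rose 2.60-fold with the LL34 shRNA, to 10.68, 10.67 and 10.60, against 9.37, 9.37 and 9.08 in LL34 scrambled cells (adjusted p = 2.27e-05).

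The stress factors Ddit3 and Atf3 parted from the other regulators. Ddit3 encodes CHOP, which is linked to cell death under prolonged stress. It read 10.76, 10.69 and 10.61 with NANCI shRNA, against 10.43, 10.17 and 10.29 with NANCI scrambled shRNA, a rise of 0.39 (SE 0.0702, adjusted p = 0.00201). In the LL34 set it read 10.47, 10.42 and 10.44 with the shRNA, against 9.38, 9.28 and 9.31 with the scrambled shRNA, a rise of 1.12 (adjusted p = 3.84e-06). Atf3, a stress-induced bZIP gene, measured −0.14 with the NANCI shRNA (adjusted p = 0.195) and fell by 0.49 with the LL34 shRNA (adjusted p = 0.000481). Its arrays read 10.04, 9.96 and 10.06 with LL34 shRNA, against 10.52, 10.48 and 10.52 with LL34 scrambled shRNA. The test of the difference between both Atf3 changes (0.35, adjusted p = 0.0216) was lost without NANCI_shRNA replicate 1 or 3, NANCI_scrambled replicate 1 or LL34_shRNA replicate 2, with adjusted p from 0.0515 to 0.0575.

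**Figure D3:**
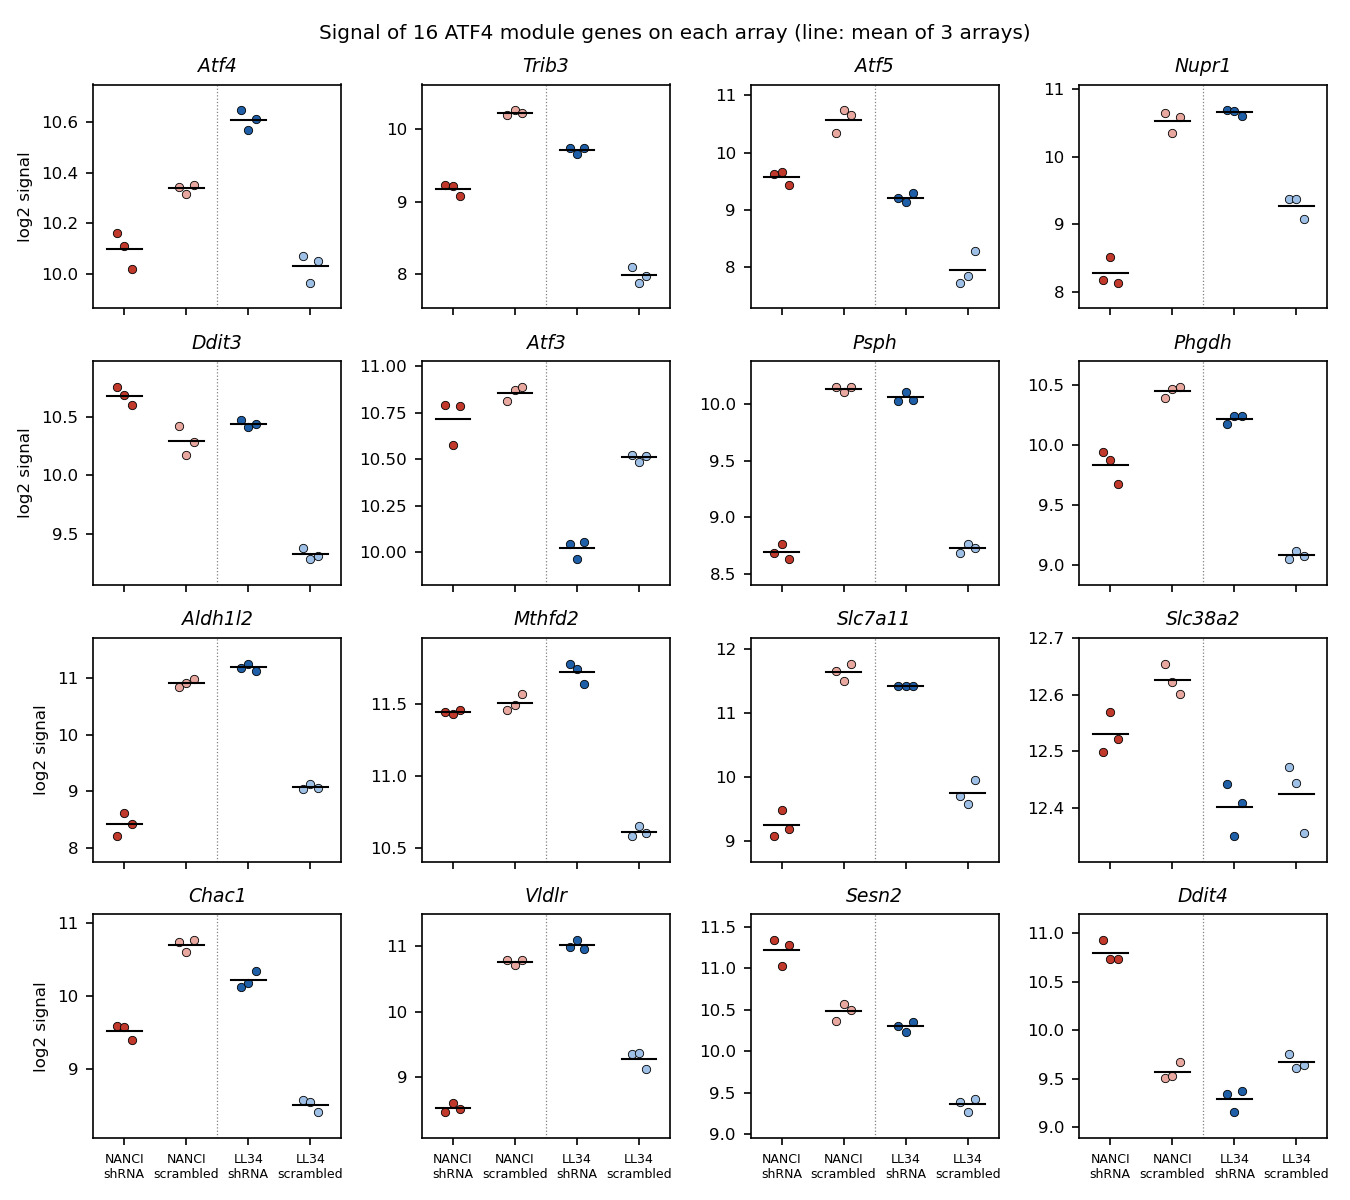
Log2 signal of 16 members on each of the 12 arrays (points), with the mean of 3 arrays as a line and a dotted line between the sets, whose levels were not tested against each other. Most panels show NANCI shRNA below NANCI scrambled and LL34 shRNA above LL34 scrambled, while Ddit3 and Sesn2 are higher with both shRNAs and Ddit4 has the opposite order.

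All 4 enzymes of serine and asparagine synthesis fell with the NANCI shRNA and rose with the LL34 shRNA. Phgdh, Psat1 and Psph catalyse the successive steps that turn a glycolytic intermediate into serine. Psph, the last of them, changed most: it read 8.68, 8.77 and 8.63 in NANCI shRNA cells, against 10.15, 10.10 and 10.15 in NANCI scrambled cells. In LL34 shRNA cells it read 10.03, 10.11 and 10.04, against 8.69, 8.76 and 8.73 in LL34 scrambled cells. That is a 2.72-fold fall and a 2.52-fold rise (adjusted p = 1.11e-07 and 4.09e-07), each larger than the spread within a group. Phgdh changed by −0.62 and 1.13 and Psat1 by −0.48 and 0.66 with the NANCI and LL34 shRNAs (adjusted p at most 9.97e-05 for these 4 changes). Asns, which makes asparagine, read 11.89, 11.90 and 11.91 with NANCI shRNA, against 12.39, 12.40 and 12.38 with NANCI scrambled shRNA. It read 12.69, 12.67 and 12.68 with LL34 shRNA, against 11.86, 11.85 and 11.97 with LL34 scrambled shRNA. Asns thus changed by −0.49 and 0.79, with an SE of 0.0495. Aldh18a1, the entry enzyme of proline synthesis from glutamate, changed by −0.74 and 0.59 (adjusted p = 1.07e-05 and 0.000105).

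Folate enzymes differed among themselves. Aldh1l2, the mitochondrial formyltetrahydrofolate dehydrogenase, had the largest change of any member in each comparison. It read 8.21, 8.62 and 8.42 with NANCI shRNA, against 10.84, 10.91 and 10.99 with NANCI scrambled shRNA, which left 17.7% of the scrambled level. It read 11.19, 11.26 and 11.13 with LL34 shRNA, against 9.05, 9.13 and 9.06 with LL34 scrambled shRNA, a 4.32-fold rise (adjusted p = 1.05e-07 and 4.09e-07). Mthfd1l, which releases formate from mitochondrial folate, fell by 0.55 with the NANCI shRNA (adjusted p = 0.000531) and rose by 0.46 with the LL34 shRNA (adjusted p = 0.00280).

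Mthfd2, the mitochondrial methylenetetrahydrofolate dehydrogenase, changed in 1 comparison. It read 11.44, 11.43 and 11.46 in NANCI shRNA cells, against 11.46, 11.49 and 11.57 in NANCI scrambled cells, a difference of −0.07 (SE 0.0558, adjusted p = 0.535). In LL34 shRNA cells it read 11.78, 11.74 and 11.63, against 10.58, 10.65 and 10.61 in LL34 scrambled cells, a 2.15-fold rise (adjusted p = 1.17e-06). The difference between these changes was itself past the threshold (−1.17, adjusted p = 3.72e-06). Shmt2, the mitochondrial serine hydroxymethyltransferase that supplies one-carbon units, changed by −0.29 and 0.25 (adjusted p = 0.0155 and 0.0393). The NANCI call for Shmt2 was lost without NANCI_shRNA replicate 2 or 3 or NANCI_scrambled replicate 3 (adjusted p from 0.0606 to 0.0630). Its LL34 call was lost without any 1 of LL34_shRNA replicates 1 and 3, LL34_scrambled replicates 1 and 2, and NANCI_scrambled replicates 1 and 3 (adjusted p from 0.0519 to 0.147) and with arrays centred on their medians (0.110). Both Shmt2 calls were also lost in fits of the 6 arrays of each set alone, and the LL34 call with the replicate number as a block. Shmt1, the cytosolic form, did not pass in either comparison (0.04 and 0.25, adjusted p = 0.847 and 0.0694). Without LL34_shRNA replicate 2, Shmt1 measured 0.34 with the LL34 shRNA (adjusted p = 0.0148), and it passed with the filter on dim probe sets (adjusted p = 0.0382).

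Among the 8 transporters measured, 5 fell with the NANCI shRNA and rose with the LL34 shRNA. Slc7a11, the light chain of the exchanger that imports cystine for glutamate, read 9.08, 9.48 and 9.19 with NANCI shRNA, against 11.65, 11.49 and 11.77 with NANCI scrambled shRNA. That was a 5.23-fold fall (adjusted p = 4.32e-07). With LL34 shRNA it read 11.42 on all 3 arrays, against 9.70, 9.58 and 9.95 with LL34 scrambled shRNA, a 3.20-fold rise (adjusted p = 6.92e-06). The 3 equal values are exact ties in the deposited table, so the spread of that group is not a measure of variation between samples. The dimmer Slc7a11 probe set measured −0.94 and 0.28 (adjusted p = 7.66e-05 and 0.112).

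Slc3a2 encodes the heavy chain that Slc7a11 and Slc7a5 both need at the membrane. It changed less than either partner, by −0.39 and 0.54 (adjusted p = 0.000218 and 4.78e-05). Slc7a5, the large neutral amino acid carrier that brings in leucine, read 12.60, 12.77 and 12.52 in NANCI shRNA cells, against 13.35, 13.27 and 13.36 in NANCI scrambled cells. In the LL34 set it read 13.30, 13.26 and 13.28 with the shRNA, against 12.54, 12.52 and 12.48 with the scrambled construct. The falls and rises of Slc7a5 were 1.62-fold and 1.70-fold (adjusted p = 2.27e-05 and 2.57e-05). Slc7a1, a carrier of cationic amino acids such as arginine, changed by −0.88 and 1.05. Slc1a4, a carrier of alanine, serine and cysteine, changed by −0.79 and 0.93 (adjusted p at most 9.02e-06 for these 4 changes).

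The remaining 3 transporters went otherwise. Slc38a2, a sodium-coupled neutral carrier known to be induced by amino acid shortage, read 12.50, 12.57 and 12.52 with NANCI shRNA, against 12.65, 12.62 and 12.60 with NANCI scrambled shRNA. It read 12.44, 12.35 and 12.41 with LL34 shRNA, against 12.47, 12.45 and 12.36 with LL34 scrambled shRNA. Neither difference passed (−0.10 and −0.02, SE 0.0535, adjusted p = 0.294 and 0.850). Slc1a5, a glutamine carrier, measured −0.27 (adjusted p = 0.0674) and fell by 0.31 with the LL34 shRNA (adjusted p = 0.0425). The LL34 call for Slc1a5 was lost on leaving out any LL34_shRNA or NANCI_scrambled array, LL34_scrambled replicate 1 or 2 or NANCI_shRNA replicate 2 (adjusted p from 0.0528 to 0.146). That call was also lost in the fit of the 6 arrays of the LL34 set alone. The NANCI difference of Slc1a5 passed without NANCI_shRNA replicate 1 (−0.35, adjusted p = 0.0268) or LL34_scrambled replicate 3 (adjusted p = 0.0220). It also passed with quantile normalization, array weights or the filter on dim probe sets (adjusted p = 0.0202, 0.0166 and 0.0370). Its other probe set measured 0.14 and −0.14 (adjusted p = 0.579 and 0.560). Slc7a3, another cationic carrier, measured −0.18 (adjusted p = 0.169) and fell by 0.36 with the LL34 shRNA (adjusted p = 0.0109). Without NANCI_shRNA replicate 2, Slc7a3 measured −0.26 with the NANCI shRNA (adjusted p = 0.0324).

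Genes of cysteine and glutathione did not move as a block. Chac1, which cleaves glutathione, read 9.58, 9.57 and 9.39 in NANCI shRNA cells, against 10.73, 10.60 and 10.76 in NANCI scrambled cells. It read 10.12, 10.18 and 10.34 in LL34 shRNA cells, against 8.58, 8.54 and 8.40 in LL34 scrambled cells. Chac1 therefore fell 2.27-fold and rose 3.27-fold (adjusted p = 3.31e-06 and 9.14e-07). Cth, which releases cysteine from cystathionine, read 8.44, 8.20 and 8.38 with NANCI shRNA, against 7.99, 7.94 and 7.91 with NANCI scrambled shRNA. With LL34 shRNA it read 8.57, 8.55 and 8.64, against 7.42, 7.07 and 6.88 with LL34 scrambled shRNA. Cth rose by 0.39 (adjusted p = 0.0327) and by 1.46 (adjusted p = 1.46e-05), and the difference between its changes passed (−1.07, adjusted p = 0.000761). The NANCI rise was lost without NANCI_shRNA replicate 1 or 3 or any NANCI_scrambled array (adjusted p from 0.0662 to 0.120). Cbs, the enzyme before Cth in transsulfuration, measured 0.21 and 0.01 (adjusted p = 0.0757 and 0.970). In the LL34 set Cbs read 6.86, 6.86 and 6.99 with the shRNA, against 6.86, 6.86 and 6.96 with the scrambled shRNA. The equal values are exact ties shared by both groups, so the 0.01 does not measure an absence of change. Without NANCI_scrambled replicate 2, Cbs measured 0.28 with the NANCI shRNA (adjusted p = 0.0289). Cbs also passed with array weights or the filter on dim probe sets (adjusted p = 0.0319 and 0.0410).

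The inhibitors of the growth kinase complex mTORC1 rose with the NANCI shRNA. Ddit4, also called REDD1, read 10.93, 10.73 and 10.73 with NANCI shRNA, against 9.51, 9.52 and 9.67 with NANCI scrambled shRNA, a 2.35-fold rise (adjusted p = 2.36e-06). It fell by 0.39 with the LL34 shRNA, to 9.34, 9.15 and 9.37, against 9.76, 9.61 and 9.64 in LL34 scrambled cells (adjusted p = 0.00826). Sesn2, a leucine sensor, read 11.34, 11.03 and 11.28 with NANCI shRNA, against 10.36, 10.57 and 10.50 with NANCI scrambled shRNA. It read 10.31, 10.24 and 10.36 with LL34 shRNA, against 9.39, 9.26 and 9.43 with LL34 scrambled shRNA. Both Sesn2 rises passed (0.73 and 0.94, adjusted p = 0.000128 and 4.86e-05), and their difference did not (−0.20, SE 0.126, adjusted p = 0.344). Ddit4 and Sesn2 are also known targets of p53, and Ddit4 of hypoxia and glucocorticoid signalling.

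Of the members with roles at the cell surface or outside, Vldlr, a lipoprotein receptor gene known to be induced through ATF4 under stress, read 8.45, 8.59 and 8.51 in NANCI shRNA cells, against 10.79, 10.71 and 10.80 in NANCI scrambled cells. In LL34 shRNA cells it read 11.00, 11.09 and 10.97, against 9.35, 9.36 and 9.12 in LL34 scrambled cells. Vldlr fell 4.75-fold and rose 3.34-fold (adjusted p = 7.82e-08 and 4.09e-07). Stc2, a secreted glycoprotein, fell by 0.66 with the NANCI shRNA (adjusted p = 0.00325) and measured 0.35 with the LL34 shRNA (adjusted p = 0.0991). Without LL34_scrambled replicate 3, Stc2 measured 0.51 with the LL34 shRNA (adjusted p = 0.00346), and with array weights 0.46 (adjusted p = 0.00389).

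The levels in the 4 groups show that the scrambled groups themselves stood apart for these genes. LL34 scrambled means were lower than NANCI scrambled means in 31 of 32 members, as in 76.5% of all named genes. The median gap was −0.82 log2 units for the members, against −0.23 for all named genes, whose 10th percentile was −0.63. In 22 members the gap lay below that percentile. LL34 shRNA means were higher than NANCI shRNA means in 21 of 32 members, with a median gap of 0.32, against −0.27 for all named genes. In 20 members the NANCI scrambled and LL34 shRNA means were both above the NANCI shRNA and LL34 scrambled means. This count was also 20 after the all-gene gap of the scrambled groups was taken from the LL34 set. The share of all named genes with this arrangement was not counted. By construction the arrangement overlaps with the pattern of falls and rises given above, so it is not a separate result.

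Psph shows the arrangement. It averaged 8.69 ± 0.0696 with NANCI shRNA and 10.14 ± 0.0272 with NANCI scrambled shRNA, and 10.06 ± 0.0439 with LL34 shRNA and 8.73 ± 0.0386 with LL34 scrambled shRNA (SD, n = 3 each). Against all 6 scrambled arrays as 1 control group, 3 members were past the threshold as lower with the NANCI shRNA (Aldh1l2 −1.58, Vldlr −1.50 and Nupr1 −1.62, adjusted p = 0.0402, 0.0185 and 0.00553). In that fit 3 were higher with the LL34 shRNA (Atf4 0.43, Asns 0.54 and Cth 1.05, adjusted p = 0.0180, 0.0287 and 0.0132). Calls in the other direction were more numerous in that fit: 5 members were higher with the NANCI shRNA (Ddit3, Ddit4, Cth, Cbs and Sesn2) and 4 were lower with the LL34 shRNA (Atf3, Ddit4, Slc7a3 and Slc1a5). These small counts no longer showed the direction seen against each set's own scrambled group. The medians of the members still did, beside those of all named genes. With the NANCI shRNA the median was −0.066, against 0.13 over all named genes. With the LL34 shRNA it was 0.38, against −0.14. Over all 41345 probe sets that fit called 3899 higher and 2322 lower with the NANCI shRNA, and 2135 and 2174 with the LL34 shRNA. The split of the member counts by direction does not stand apart from these. That fit moves every change by part of the gap between the scrambled groups, in opposite directions for the NANCI and LL34 shRNAs. The gap also enters its spread. Set, infection batch and scrambled group cannot be told apart here, and in bulk RNA fewer cells of a type and less RNA per cell cannot be told apart either.

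**Figure D4:**
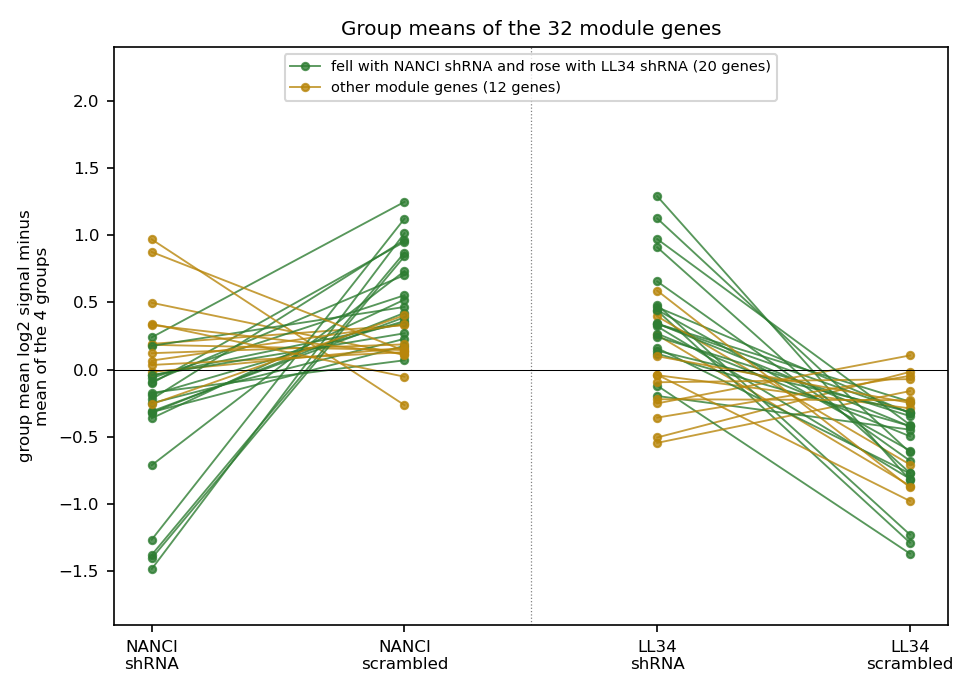
Mean log2 signal of each of the 32 members in the 4 groups, relative to the mean of that gene over the groups, with lines joining each shRNA group to its own scrambled group. Green lines are the 20 genes that fell with NANCI shRNA and rose with LL34 shRNA, and levels across the dotted line between the sets were not tested.

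Genes around the module were read from 7 further lists. The counts stand beside 13.6% of all named genes lower and 13.2% higher with the NANCI shRNA, and 10.3% lower and 9.77% higher with the LL34 shRNA. Of 20 other ATF4 target genes, 9 fell, 4 rose and 7 did not pass with the NANCI shRNA, and 12 rose, 0 fell and 8 did not pass with the LL34 shRNA (limma, as above). The pattern of being lower with the first and higher with the second held for 8 of the 20. Their medians were −0.17 and 0.33, beside 0.0042 and −0.019 for all named genes. Pck2, the mitochondrial enzyme that makes phosphoenolpyruvate, fell by 1.55, the translation regulator gene Niban1 fell by 1.16 and the ER-stress gene Herpud1 fell by 0.78 with the NANCI shRNA. The 4 that rose with the NANCI shRNA, named after their values were seen, were Slc38a7 (0.72), Bbc3 (0.66), Cebpb (0.31) and Sqstm1 (0.27). With the LL34 shRNA Gpt2, the mitochondrial alanine transaminase, rose by 1.00, the mitochondrial protease gene Lonp1 by 0.89 and Herpud1 by 0.73. Cytosolic aminoacyl-tRNA synthetases, which charge tRNAs with amino acids, fell in 10 of 18 cases and rose in 4 with the NANCI shRNA (median −0.29). With the LL34 shRNA 11 rose and 1 fell (median 0.49). Iars, Lars and Eprs fell by 0.98, 1.06 and 0.86 with the NANCI shRNA, and Nars, Sars and Cars rose by 0.77, 0.71 and 0.80 with the LL34 shRNA. Hars (0.55), Kars (0.54), Farsb (0.28) and Sars (0.21) were the 4 that rose with the NANCI shRNA, named after their values were seen. Sars thus rose with both shRNAs.

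Of 16 genes listed as upstream of ATF4, none fell with the NANCI shRNA and rose with the LL34 shRNA. That pattern held for 2.90% of all named genes, so a count of 0 in 16 does not set them apart. The list held genes for eIF2 kinases, eIF2, its exchange factor eIF2B and its phosphatase, and also Gcn1, Impact, Eif2a and Eif2d. The eIF2 subunit genes Eif2s1 and Eif2s3x were not measured. Of the 16, 4 rose and 3 fell with the NANCI shRNA (median −0.0091), and 4 rose with the LL34 shRNA (median 0.11). The 3 that fell, named after their values were seen, were the kinase genes Eif2ak1 (−0.29), Eif2ak2 (−0.41) and Eif2ak3 (−0.25). None of these 3 passed with the LL34 shRNA, and the kinase gene Eif2ak4 did not pass in either comparison. The exchange factor genes Eif2b2 and Eif2b3 and the initiation factor gene Eif2d rose by 0.53, 0.42 and 0.36 with the NANCI shRNA. With the LL34 shRNA Eif2b4 rose by 0.52, Ppp1r15a, the stress-induced phosphatase subunit that reverses eIF2 phosphorylation, by 0.44 and Eif2s2 by 0.36. Ppp1r15a is also counted among the other ATF4 target genes above. These arrays measure RNA, and phosphorylation of eIF2 was not measured.

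Further lists held enzymes and carriers for the same nutrients, many of which did not pass. Glutathione genes rose in 5 of 9 cases with no fall with the NANCI shRNA (median 0.40), and fell in 5 with no rise with the LL34 shRNA (median −0.24). Gclc and Gclm, the subunits of the rate-limiting enzyme of glutathione synthesis, rose by 0.53 and 1.17 with the NANCI shRNA, and Gclc fell by 0.64 with the LL34 shRNA. Gss, the synthase of the final step, rose by 0.50 with the NANCI shRNA and fell by 0.29 with the LL34 shRNA. Gclc and Gclm are best known as NRF2 targets. Of 15 enzymes of proline, glutamate, arginine and branched-chain amino acids, 7 rose and 1 fell with the NANCI shRNA, and 1 rose and 6 fell with the LL34 shRNA (medians 0.29 and −0.099). Aldh4a1, which breaks down proline-derived intermediates, rose by 1.59 with the NANCI shRNA, and Glul, glutamine synthetase, fell by 1.85 with the LL34 shRNA.

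Of 22 other folate, methionine cycle and glycine cleavage genes, 6 rose and 2 fell with the NANCI shRNA, and 1 rose and 3 fell with the LL34 shRNA (medians 0.094 and −0.086). Mthfd1, the cytosolic folate enzyme, and Mthfd2l, the mitochondrial relative of Mthfd2, rose by 0.42 and 0.58 with the NANCI shRNA and fell by 0.41 and 0.44 with the LL34 shRNA. Mtrr, methionine synthase reductase, fell by 1.70 with the NANCI shRNA. Of 22 other amino acid transporters, 2 rose and 6 fell with the NANCI shRNA, and 2 rose and 3 fell with the LL34 shRNA (medians −0.055 and −0.021). Slc7a2, a cationic carrier, followed the module, with −1.21 and 0.91, and Slc6a6, the taurine carrier, had the other order, with 0.32 and −1.21. Adjusted p-values (limma) of the changes given for genes of these lists were at most 0.0129, except for Cebpb, Sars and eIF2 kinase genes. The value was 0.0394 for Cebpb and 0.0171 for Sars, each with the NANCI shRNA. For Eif2ak1, Eif2ak2 and Eif2ak3 the adjusted p-values were 0.0391, 0.0316 and 0.0189.

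**Figure D5:**
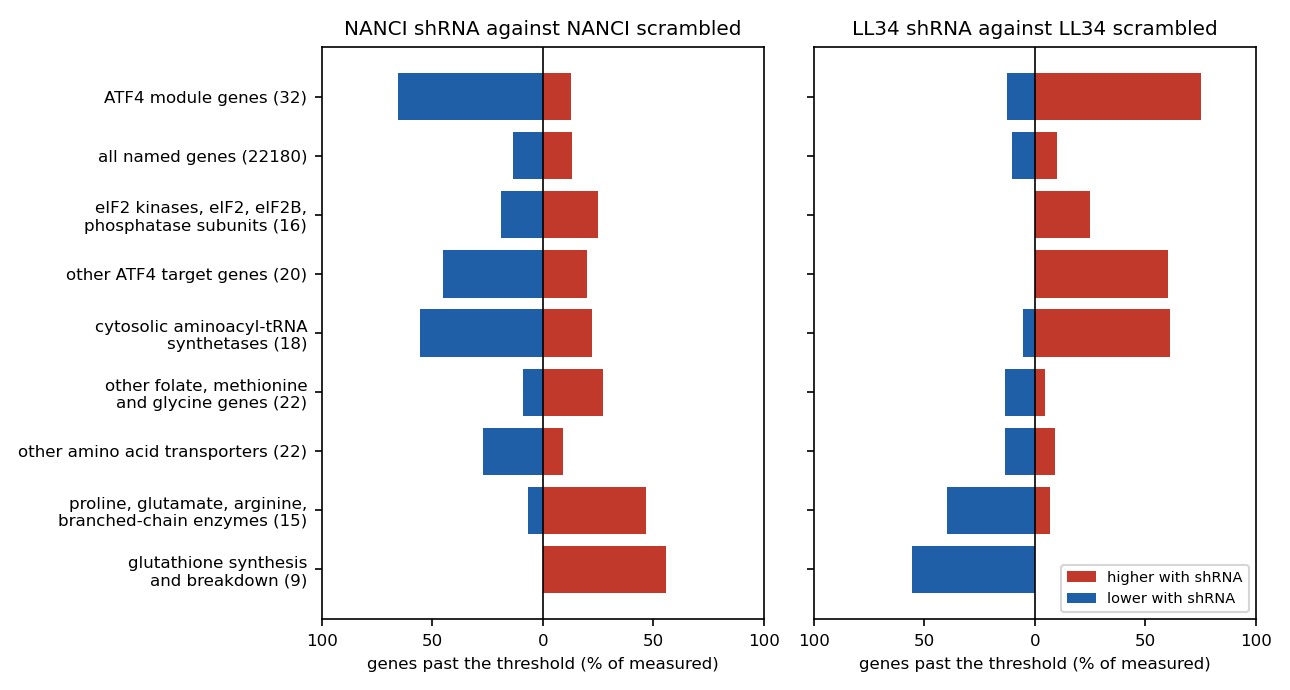
Share of measured genes past the threshold as higher (right of 0) or lower (left of 0) with the NANCI shRNA (left panel) and the LL34 shRNA (right panel), for the module, all named genes and the 7 further lists, with the number measured in brackets. In the module 21 of 32 genes were lower with NANCI shRNA and 24 higher with LL34 shRNA, and of 9 glutathione genes 5 were higher with NANCI shRNA and 5 lower with LL34 shRNA.

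Cell identity was read from marker lists. Distal lung epithelial markers fell in 4 of 13 cases and rose in 1 with the NANCI shRNA, and fell in 4 and rose in 2 with the LL34 shRNA, beside 13.6% lower and 13.2% higher among all named genes with the NANCI shRNA and 10.3% and 9.77% with the LL34 shRNA. Their mean log2 signal ran from 8.14 to 8.20 on NANCI shRNA arrays, against 8.48 to 8.54 on NANCI scrambled arrays. It ran from 8.15 to 8.22 on LL34 shRNA arrays, against 8.29 to 8.41 on LL34 scrambled arrays. Only Nkx2-1 and the keratin gene Krt8 fell with both shRNAs, and 8 markers did not pass with the NANCI shRNA and 7 with the LL34 shRNA. Nkx2-1, the lung lineage factor, read 10.18, 10.18 and 10.04 with NANCI shRNA, against 11.18, 11.12 and 11.10 with NANCI scrambled shRNA. Abca3, the lipid transporter of lamellar bodies, and the E-cadherin gene Cdh1 fell by 1.24 and 1.56 with the NANCI shRNA (adjusted p = 6.92e-07 for each). In the other direction, the surfactant protein gene Sftpb rose by 0.62 with the LL34 shRNA (adjusted p = 0.00504). The forkhead factor gene Foxa2 rose by 0.29 with the NANCI shRNA and fell by 0.39 with the LL34 shRNA (adjusted p = 0.0102 and 0.00270). Of 8 fibroblast markers 2 fell with the NANCI shRNA (Fbln1 and Dcn) and 1 with the LL34 shRNA (Fbln1), and of 5 leukocyte markers 1 rose with the NANCI shRNA (Cd68). None of 5 endothelial markers passed in either limma comparison. The part of cell identity in the module's changes was not tested.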

How the data were processed

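RNA of 12 MLE12 samples was converted to biotin-labelled cRNA from 100 ng and hybridised to 12 single-channel arrays. The deposited values are log2 signals for 41345 probe sets, made, per the submitters' processing notes, with oligo and RMA, where limma is listed too and no version is stated. Of these probe sets 23521 had 1 gene symbol, 1814 several and 16010 none in the platform annotation. Symbols were updated through gene identifiers of assembly GRCm38.p6.

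The model was fitted with limma 3.58.1 (R 4.3.3) to the 12 arrays, with 4 group means, 8 residual degrees of freedom and 2.84 prior degrees of freedom. P-values were adjusted by Benjamini-Hochberg over all probe sets, with a threshold of 0.05, and the method was tested on simulated data. Changes are shRNA minus scrambled. The labels call replicates biological without saying whether infections were separate, so a p-value here reflects variation among arrays that may be technical. The number of arrays limits the precision. Exact ties between arrays of a group occurred in 5851 probe sets, among them those of Slc7a11 and Cbs, and errors there may be too small.

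The members, lists and tests were chosen with earlier results of these data known. All members are named, and up to 3 genes of smallest p per further list and comparison. Some further genes of the lists were named after their values were seen. The 11 further lists held 166 entries, of which 153 were measured.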

Additional observations from a re-analysis of the deposited data

Results flagged for a closer look

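The change with NANCI shRNA minus the change with LL34 shRNA passed the threshold in 26 of 32 genes (limma on all 12 arrays). The 2 changes of such a gene, each against its own scrambled group, thus differed by a direct test. The difference includes the gap between the scrambled groups, which cannot be told apart from set or infection batch. Taken as LL34 minus NANCI, that gap had a median of −0.82 over the members, beside 0.32 between the shRNA groups. Among regulators the difference between the changes was −2.78 for Trib3, −3.63 for Nupr1, −2.26 for Atf5 and −1.07 for Cebpg. It was −0.82 for Atf4, −0.73 for Ddit3 and 0.35 for Atf3. Among synthesis enzymes it was −2.78 for Psph, −1.75 for Phgdh, −1.14 for Psat1, −1.28 for Asns and −1.33 for Aldh18a1. Folate enzymes measured −4.61 for Aldh1l2, −1.17 for Mthfd2, −1.0 for Mthfd1l and −0.54 for Shmt2. Transporters measured −4.07 for Slc7a11, −1.93 for Slc7a1, −1.73 for Slc1a4, −1.47 for Slc7a5 and −0.93 for Slc3a2. The others were −3.99 for Vldlr, −2.89 for Chac1, −1.07 for Cth, −1.01 for Stc2 and 1.62 for Ddit4. Adjusted p-values ran from 1.82e-08 for Psph, Aldh1l2 and Vldlr to 0.0216 for Atf3. Groups of 3 arrays are too small for a test of single outlying arrays.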

How the results depend on the processing

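The counts of members called in each direction stayed within 1.5 times under quantile normalization over all arrays, centring on array medians, fits of 6 arrays alone, array weights, another variance moderation, a filter on dim probe sets, the mean of a gene's probe sets and, chosen after seeing the data, removal of tied probe sets. On leaving out each array in turn, members lower with NANCI shRNA numbered 20 to 22 and members higher with it 3 to 4. Members higher with LL34 shRNA numbered 23 to 25 and members lower with it 3 to 4. The difference between the changes was below 0 in 24 members each time and above 0 in 1 to 2. With all 6 scrambled arrays as 1 control group, 3 members were lower with NANCI shRNA in place of 21, and 3 were higher with LL34 shRNA in place of 24. Against these stood 5 higher with NANCI shRNA and 4 lower with LL34 shRNA. In that fit the NANCI changes of Trib3 (0.066), Atf5 (0.30), Phgdh (0.067), Shmt2 (0.17) and Cebpg (0.071) and the LL34 changes of Atf5 (−0.059) and Shmt2 (−0.21) turned sign, none past the threshold. Over all probe sets, LL34 calls split into 4011 higher and 2755 lower, against 3307 and 3463 after quantile normalization and 3062 and 3035 after centring, and the cause was not tested. In the fit with all 6 scrambled arrays as 1 control group, the gap between the scrambled groups is included by construction. There the median of all genes moved to 0.13 with the NANCI shRNA and −0.14 with the LL34 shRNA.

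The replicate numbers did not pair the arrays: same-numbered deviations correlated between −0.057 and 0.012 in the NANCI set and between −0.12 and 0.045 in the LL34 set. With the number as a replicate block, members lower with LL34 shRNA numbered 2 in place of 4, with Slc7a3 (adjusted p = 0.0588) and Slc1a5 (0.0651) no longer past the threshold, and the difference was above 0 in 1 member in place of 2. The other counts under the block were 21 and 3 with NANCI shRNA, 23 higher with LL34 shRNA and 24 for the difference below 0.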
